A study of Mus musculus with 17 samples.

Results

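The 10 genes studied here belong to bone morphogenetic protein (BMP) signalling, of 34682 genes in the count table, and were followed across mouse limb buds of stage E12.5. They were taken by name: the ligands Bmp2, Bmp4, Bmp5 and Bmp7, the type I receptors Bmpr1a and Bmpr1b, the secreted antagonists Nog and Chrd, and the homeobox genes Msx1 and Msx2. PolyA RNA had been sequenced from limb buds of 5 genotypes with structural variants at the Sox9/Kcnj locus and of wild-type embryos. Dup-C had 2 libraries, Dup-L had 2 and Dup-LΔBor had 4. The ΔBor heterozygotes (ΔBor het) had 2, the homozygote (ΔBor hom) had 1 and wild type (WT) had 4. By their names, Dup-C and Dup-L are duplications, ΔBor deletes a boundary between domains, and Dup-LΔBor carries both changes. The zygosity of the duplications, the strain, the limb taken and whether a library is 1 embryo are not in the labels, so the p-values measure the spread between libraries, which may be technical. The 2 fingertip samples of stage E17.5 were not analysed here.

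BMP ligands are secreted dimers that bind a complex of type I and type II receptors, which phosphorylates receptor Smads that enter the nucleus with Smad4. Noggin, the product of Nog, and chordin, the product of Chrd, bind ligands outside the cell and keep them from the receptors. In the limb bud, BMPs from the apical ridge and the mesenchyme act in patterning, in condensation of the digits, where Bmpr1b is needed, and in the death of cells between the digits. Msx1 and Msx2 encode transcriptional repressors of distal mesenchyme and of the ridge, and are widely used as readouts of BMP signalling.

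The stretches of 250 bases upstream of the RefSeq start of Msx1 and of Bmp4 are shown, as a target and a ligand. They are from GRCm38.p6, both on the minus strand, written 5′ to 3′ as the gene reads. Capitals mark CpG pairs.
Msx1, chr5:37824586-37824835: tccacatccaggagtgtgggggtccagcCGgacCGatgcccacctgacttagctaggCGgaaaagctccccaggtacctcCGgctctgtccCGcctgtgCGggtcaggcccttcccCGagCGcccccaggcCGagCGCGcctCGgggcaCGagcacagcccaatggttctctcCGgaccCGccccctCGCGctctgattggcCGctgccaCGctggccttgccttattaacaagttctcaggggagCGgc
Bmp4, chr14:46390670-46390919: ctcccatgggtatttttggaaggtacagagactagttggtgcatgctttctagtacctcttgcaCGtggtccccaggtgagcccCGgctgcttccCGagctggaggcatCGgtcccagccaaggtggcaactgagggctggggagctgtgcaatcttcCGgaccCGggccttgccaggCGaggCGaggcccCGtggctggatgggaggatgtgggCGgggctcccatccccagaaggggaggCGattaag
The Msx1 stretch had 68.0% GC and 20 CpG pairs and the Bmp4 stretch 63.2% GC and 11, against medians of 52.0% GC and 6 over all RefSeq promoters of this length. A pair of short motifs described for Smad proteins were searched on both strands. The palindrome GGCGCC was in neither stretch (9.54% of 27025 promoters hold it), and GTCTG was in neither (42.1% hold it). These are descriptions of the letters in this window. Of the 10 genes, 7 had a promoter entry.

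Total counts ran from 34486256 to 53711742 per library, and all 10 genes passed the filter on low counts. Levels are CPM, which are counts divided by library size after scaling by TMM, edgeR's library normalization. Markers of limb mesenchyme were present in every library (6 of 6 listed). Kcnj2 stood at 87.7 and 75.2 CPM in Dup-C, 25.3 and 33.4 CPM in Dup-L, 45.7 to 69.4 CPM in Dup-LΔBor, 44.5 and 30.4 CPM in ΔBor het, 63.0 CPM in ΔBor hom and 17.6 to 26.2 CPM in WT. The headers give library numbers in 2 ranges, called batches here. The second holds Dup-LΔBor with WT 3 and 4, and the first holds all others, so Dup-LΔBor and Dup-L share no batch. In the headers 1 library number stands for both Dup-LΔBor R4 and R5. They were kept as separate libraries, since the chi-square per degree of freedom between them over genes was 27.2, far above sampling noise and within the 6.28 to 35.5 of the other pairs of this group. Leaving out R4 or R5 left 0 members past the threshold against WT and 5 against Dup-L. Pitx1, which specifies the hindlimb, stood at 0.518 and 0.677 CPM in Dup-L and at 1.83 CPM in both WT 2 and WT 4, but at 39.9 to 116 CPM in the other 11 libraries. Those same 4 libraries had the lowest Tbx4, a hindlimb gene (18.8 to 27.6 CPM, against 62.2 CPM or more elsewhere), and the highest Tbx5, a forelimb gene (184 to 234 CPM, against at most 136 CPM). Library GC content also differed. The GC tilt, the median log2 deviation of the genes richest in GC (top 20%) minus that of the poorest 20%, was -0.52 and -0.60 in Dup-L, -0.49 and 0.01 in ΔBor het and -0.33 in ΔBor hom. It was 0.08 and -0.13 in Dup-C, 0.10 to 0.41 in Dup-LΔBor and 0.10 to 0.30 in WT. All 5 comparisons with WT share the same 4 WT libraries.

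Levels of different genes were compared per length, as the authors' deposited FPKM, which divides fragments by gene length and library size. In WT, Bmpr1a averaged 48.2 ± 0.797 FPKM and Bmp7 42.0 ± 16.4 FPKM (SD, n = 4), and their ranges overlapped. Msx2 followed at 28.8 ± 5.92 FPKM, overlapping Bmp7. Msx1 at 18.5 ± 0.509 FPKM and Bmp4 at 16.5 ± 1.69 FPKM overlapped each other and lay below every Msx2 value. Bmp2 (8.61 ± 1.14 FPKM), Bmpr1b (6.51 ± 1.24 FPKM), Nog (6.29 ± 2.31 FPKM) and Bmp5 (5.16 ± 0.995 FPKM) came next. The Bmp2 range overlapped those of Bmpr1b and Nog but lay above that of Bmp5. Chrd was the lowest, at 2.67 ± 0.999 FPKM, below every Bmp5 value.

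**Figure D1:**
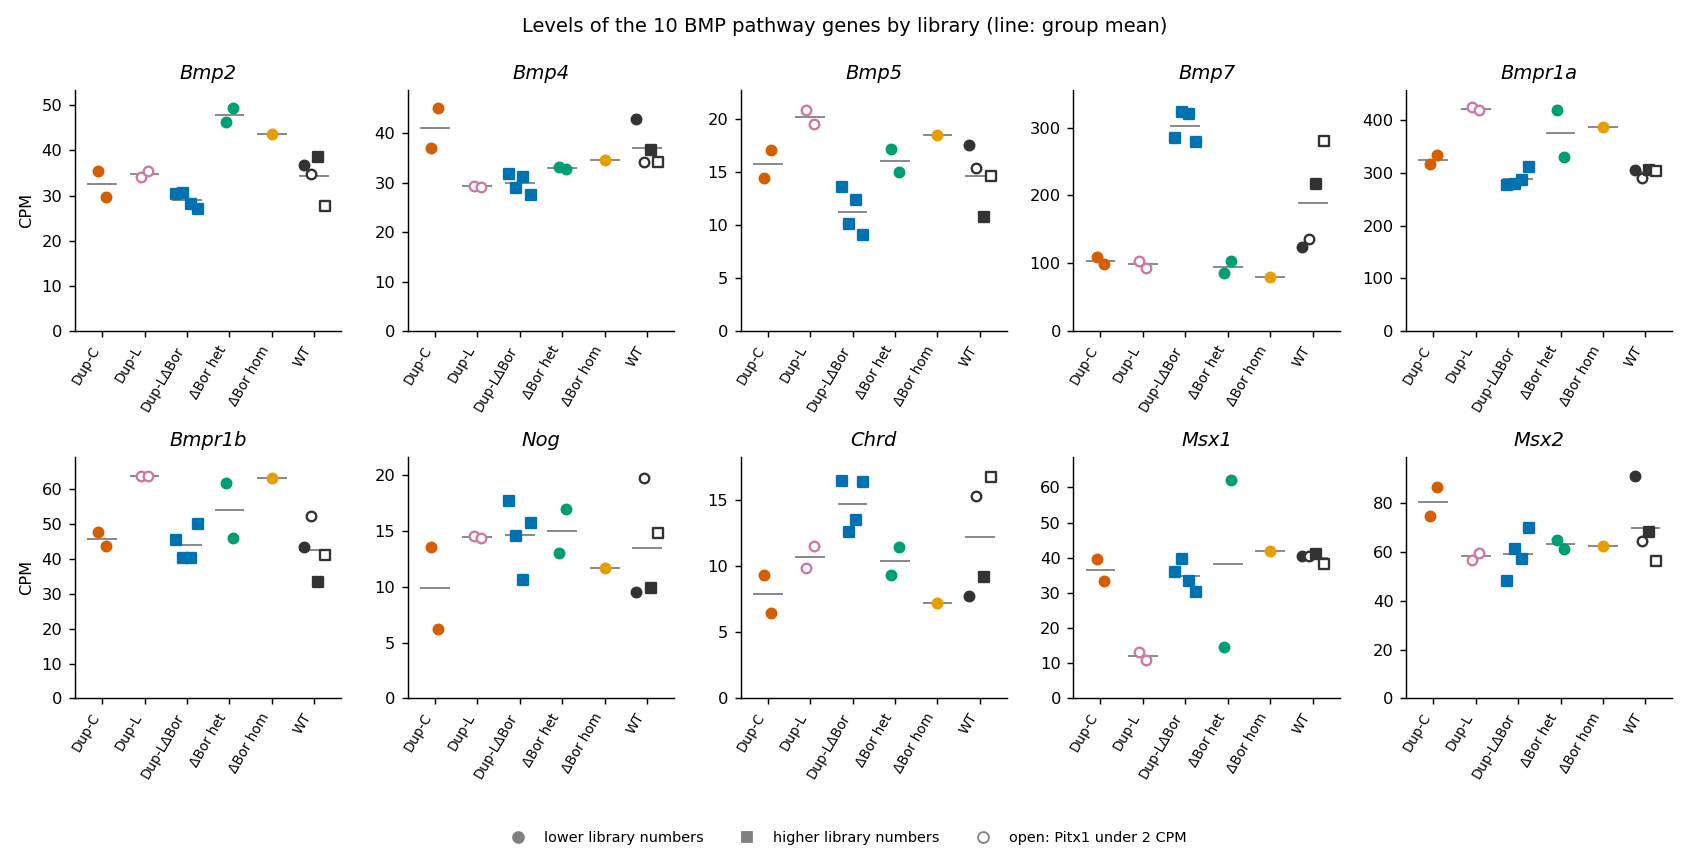
Level of each of the 10 genes in every library, in CPM on a linear axis that starts at 0, with groups left to right from Dup-C to WT and a line at the group mean. Squares are libraries of the second batch and open symbols are the 4 libraries with Pitx1 under 2 CPM. Msx1 lies at 10.8 to 14.5 CPM in both Dup-L libraries and in ΔBor het 1 and at 30.3 CPM or more elsewhere, and Bmp7 is at 216 CPM or more in all libraries of the second batch and at 135 CPM or less in the first.

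In the fit of all 15 libraries without covariates, Dup-L had the most members that differed from WT. Msx1 fell below every WT library, the ligands Bmp7 and Bmp4 fell, and both type I receptors rose, while Bmp2, Bmp5, Nog, Chrd and Msx2 did not pass the test. That made 5 of 10 members past the threshold of adjusted p 0.05 in edgeR's quasi-likelihood test, where 32.4% of the 17655 genes tested passed. Of the members 2 were higher, beside 15.8% of all genes, and 3 lower, beside 16.6%. The CPM ranges were apart for 6 of the 10, close to the 51.0% of all genes. The median log2 fold change was -0.09 over the members and 0.0 over all genes tested.

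Msx1 had 13.3 and 10.8 CPM in Dup-L, against 40.6, 40.5, 41.0 and 38.2 CPM in WT. The WT libraries lay within 3 CPM of each other, whether low or high in Pitx1, and both Dup-L libraries were far below them. The log2 fold change was -1.73 (SE 0.41, adjusted p = 0.00849, edgeR). Msx1 has the highest GC content of the 10 genes, 58.2% of its transcript, where the upper quartile of tested genes was 54.6%. With offsets for GC content and length, the log2 fold change was -1.27 and remained past the threshold (adjusted p = 0.0446). Within the first batch it was -1.78 (adjusted p = 0.10, 2 libraries each). Without Dup-L 2 it was -1.58 (adjusted p = 0.0964).

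Bmp7, a ligand of the ridge and mesenchyme, had 103 and 93.0 CPM in Dup-L, against 124, 135, 216 and 280 CPM in WT. The 2 WT libraries of the second batch were the high ones. The log2 fold change of -0.94 (SE 0.26, adjusted p = 0.0157) was smaller within the first batch, at -0.43 (adjusted p = 0.0438). With GC and length offsets it was -0.60 (adjusted p = 0.165). Bmp4 had 29.3 and 29.2 CPM in Dup-L, against 42.8, 34.1, 36.6 and 34.1 CPM in WT, and the log2 ratio was -0.34 (SE 0.11, adjusted p = 0.036). The Bmp4 change did not pass with the offsets (-0.21, adjusted p = 0.347) or within the first batch (-0.42, adjusted p = 0.0642).

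The receptors went the other way. Bmpr1a, the broadly expressed type I receptor, had 424 and 419 CPM in Dup-L, against 306, 290, 305 and 303 CPM in WT (log2 fold change 0.49, SE 0.10, adjusted p = 0.00278). It also passed within the first batch (0.47, adjusted p = 0.0319). Bmpr1b had 63.7 and 63.6 CPM in Dup-L, against 43.3, 52.1, 33.4 and 41.1 CPM in WT (0.58, SE 0.15, adjusted p = 0.00929). Bmpr1b did not pass within the first batch (0.39, adjusted p = 0.0831) or with batch as a term (0.41, adjusted p = 0.0608). Both Dup-L libraries were above every WT library for either receptor. These transcripts are poor in GC, at 41.3% for Bmpr1a and 42.2% for Bmpr1b, under the lower quartile of 45.1%. With GC and length offsets the log2 fold changes were 0.10 for Bmpr1a (adjusted p = 0.452) and 0.23 for Bmpr1b (adjusted p = 0.293).

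Bmp5, a ligand whose transcript has the lowest GC content of the 10 (40.5%), had 20.9 and 19.5 CPM in Dup-L, against 17.53, 15.4, 10.8 and 14.6 CPM in WT. The groups did not overlap, but the log2 fold change of 0.47 missed the threshold (SE 0.18, adjusted p = 0.0574). With the offsets it was -0.02. Bmp2 had 34.0 and 35.5 CPM in Dup-L, within the WT range of 27.6 to 38.5 CPM. Msx2 had 56.8 and 59.6 CPM in Dup-L, at the low end of the WT range of 56.1 to 91.0 CPM (log2 fold change -0.26, adjusted p = 0.245). With Pitx1 as a covariate no member passed in this comparison, and Msx1 was at -1.46 (adjusted p = 0.115). In that edgeR fit 0 of 17655 genes passed, with 4676 at an unadjusted p under 0.05. Without Dup-L 1 the members past the threshold were Bmpr1a and Msx1, and without Dup-L 2 Bmpr1a alone. In bulk libraries, fewer cells of a type and less RNA per cell cannot be told apart. Summed markers of surface ectoderm, which expresses Msx2 and several ligands, summed to 625 and 462 CPM in Dup-L and to 628 to 982 CPM in WT (8 of 8 listed markers present). Of the 9 other marker lists, 4 also lay outside the WT range in Dup-L. Summed markers of limb mesenchyme reached 1314 and 1390 CPM in the Dup-L libraries, above the 1057 to 1294 CPM of WT. That list holds Tbx4 and Tbx5, so limb type also enters its sum. Endothelium was at 211 and 205 against 225 to 283.5 CPM, macrophage at 20.9 and 21.5 against 22.7 to 29.7 CPM, and nerve and glia at 72.5 and 70.8 against 83.5 to 117 CPM, with every listed marker of these 4 present. Such shifts were not particular to Dup-L. Nerve and glia also lay below WT in every other genotype, at 53.2 to 79.7 CPM. Surface ectoderm was below WT in ΔBor het (528 and 604 CPM) and ΔBor hom (525 CPM). Endothelium and macrophage were below WT in Dup-C and ΔBor hom. Limb mesenchyme was above WT in ΔBor hom and below it in Dup-LΔBor. The part of these marker lists in the results was not tested.

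**Figure D2:**
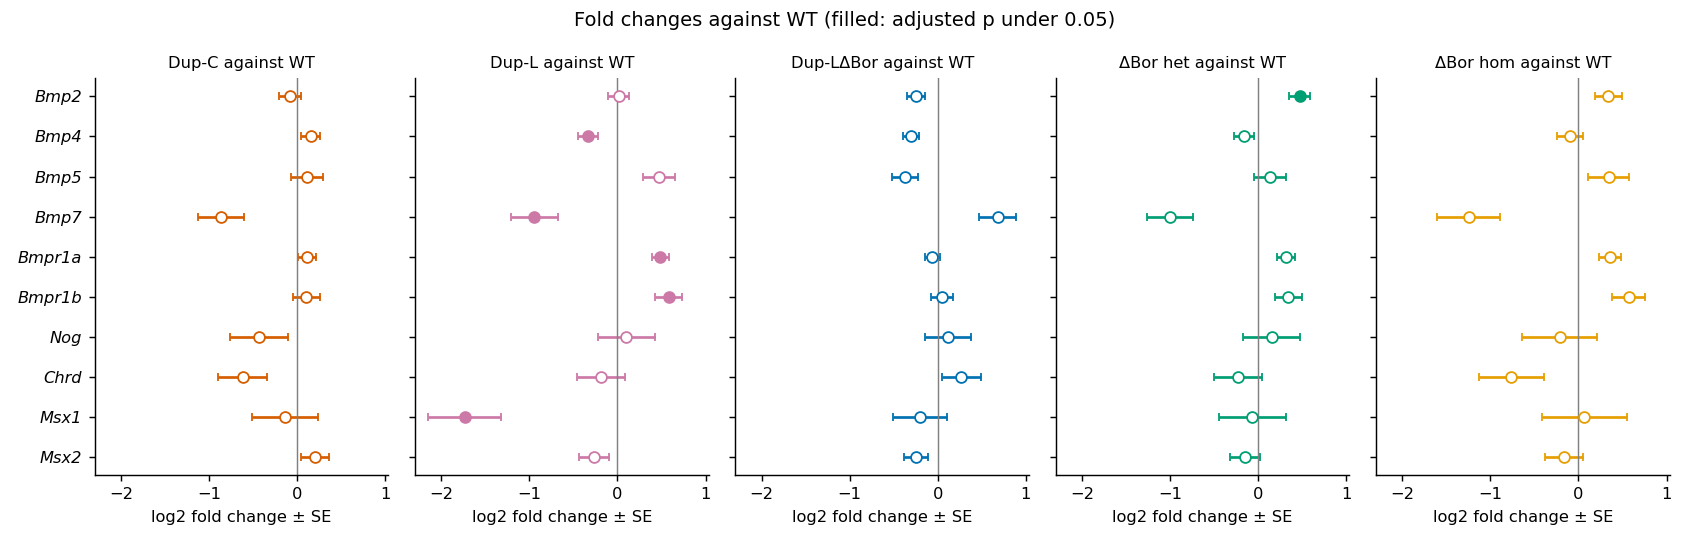
Log2 fold change of the 10 genes in each genotype against WT, with the genes down the page and bars of 1 SE. Filled points passed the adjusted threshold in edgeR: Bmp4, Bmp7 and Msx1 lower and Bmpr1a and Bmpr1b higher in Dup-L, and Bmp2 higher in ΔBor het.

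In Dup-LΔBor, where the duplication is combined with the boundary deletion, the Msx genes lay close to WT. Msx1 had 36.0, 39.5, 33.5 and 30.3 CPM in Dup-LΔBor, and 3 of these 4 values were below all WT libraries (log2 fold change -0.20, SE 0.31, adjusted p = 0.733). Msx2 had 47.9, 61.2, 57.1 and 69.6 CPM, overlapping WT (-0.25, SE 0.13, adjusted p = 0.281). No member passed in edgeR, against 3.85% of all genes, and the CPM ranges were apart for 1 of 10, against 12.3%. An unadjusted p under 0.05 was reached by 4 members, and by 4183 of 17655 genes. DESeq2 called 2 (Bmp4 and Bmp7), where it called 1634 of 16362 genes. In limma on log2 FPKM 1 passed (Bmp4), where 628 of 14616 genes did at pseudocount 0.1 and 664 at pseudocount 1.

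Bmp7 was high in Dup-LΔBor, with 285, 324, 320 and 279 CPM, against 124, 135, 216 and 280 CPM in WT (log2 fold change 0.68, SE 0.21, adjusted p = 0.0764). Against WT 3 and 4 alone, the libraries of its own batch, the log2 fold change was 0.28 (adjusted p = 0.319). Bmp4 had 31.8, 29.0, 31.2 and 27.6 CPM in Dup-LΔBor, all below the lowest WT value of 34.1 CPM (-0.30, SE 0.09, adjusted p = 0.0712). Bmp2 had 30.3, 30.6, 28.1 and 27.1 CPM in Dup-LΔBor, overlapping WT through WT 4 (-0.25, SE 0.10, adjusted p = 0.152). With Pitx1 as a covariate Bmp2 and Bmp4 were lower and Chrd higher past the threshold (-0.38, -0.39 and 0.72, adjusted p = 0.0336, 0.0298 and 0.0335). Without WT 4 the members past it were Bmp2, Bmp4 and Bmp7, where 1516 of 17593 genes passed. Without WT 3 it was Bmp5 alone, where 1087 of 17603 genes passed.

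Set directly against Dup-L, Dup-LΔBor had higher Msx1 and Bmp7 and lower Bmp5, Bmpr1a and Bmpr1b. These were 5 of 10 members, where 43.6% of all genes passed. The 2 higher members stand beside 21.5% of all genes and the 3 lower ones beside 22.1%. The CPM ranges were apart for 7 of 10, against 64.7% of all genes, and no library pair of this comparison shares a batch. Without a batch term, the log2 difference of Bmp7 was 1.62 (SE 0.27, adjusted p = 0.00051). With batch as a term it was 0.68 (adjusted p = 0.0276). The log2 difference of Msx1 was 1.53 (SE 0.41, adjusted p = 0.0102). Under the offsets for GC and length Msx1 still passed (1.03, adjusted p = 0.0305) but not with batch as a term (1.56, adjusted p = 0.118). Bmp5 had 13.6, 10.1, 12.3 and 9.0 CPM in Dup-LΔBor, against 20.9 and 19.5 CPM in Dup-L (-0.84, SE 0.18, adjusted p = 0.00172). Bmpr1a fell to 277, 279, 286 and 312 CPM in Dup-LΔBor, against 424 and 419 CPM in Dup-L (-0.55, SE 0.10, adjusted p = 0.00053). Bmpr1b fell to 45.2, 40.2, 40.3 and 49.8 CPM in Dup-LΔBor, against 63.7 and 63.6 CPM in Dup-L (-0.54, SE 0.15, adjusted p = 0.01). With batch as a term Bmp5 was at -0.46 (adjusted p = 0.217) and Bmpr1b at -0.18 (adjusted p = 0.578), no longer past the threshold, and Bmpr1a at -0.58 (adjusted p = 0.0263). Pitx1 is low in Dup-L and high in Dup-LΔBor, so its part cannot be told apart from that of genotype. With Pitx1 as a covariate Msx1 (1.10, adjusted p = 0.317) and Bmp5 (-0.70, adjusted p = 0.167) missed the threshold. So did Bmpr1a (-0.51, adjusted p = 0.0715) and Bmpr1b (-0.08, adjusted p = 0.849). Bmp7 (1.88, adjusted p = 0.0402), Bmp2 (-0.64, adjusted p = 0.0475) and Chrd (1.52, adjusted p = 0.0263) passed. With GC and length offsets the log2 differences were -0.23 for Bmp5, -0.08 for Bmpr1a and -0.11 for Bmpr1b, none past the threshold, while Bmp2 passed (-0.45, adjusted p = 0.0124). Without Dup-L 2 the members past it were Bmp5, Bmp7 and Bmpr1a.

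In ΔBor het, Bmp2 was the only member past the threshold in edgeR. Bmp2 had 46.3 and 49.3 CPM in ΔBor het, against 36.8, 34.7, 38.5 and 27.6 CPM in WT, and the groups did not overlap (log2 fold change 0.47, SE 0.12, adjusted p = 0.0443). This is 1 of 10 members, where 4.03% of all genes passed, and the CPM ranges were apart for 4 of 10, against 26.8%. Under the offsets for GC and length Bmp2 still passed (0.60, adjusted p = 0.0386) but not within the first batch (0.41, adjusted p = 0.277). The log2 fold change of Bmp2 was 0.51 without ΔBor het 1 and 0.43 without ΔBor het 2, each of which leaves 1 library in the group. Without WT 4 that of Bmp2 was 0.39 (adjusted p = 0.0854), where 56 of 17593 genes passed. Without ΔBor het 2 the log2 fold changes of Bmpr1a and Msx1 were 0.48 and -1.47. Without WT 1 or without WT 2 the members past the threshold were Bmp2 and Bmp7, where 2490 of 17593 and 935 of 17590 genes passed. The ΔBor hom library had 43.5 CPM of Bmp2, also above every WT library (0.34, SE 0.15, adjusted p = 0.178).

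The ΔBor het libraries disagreed on Msx1. They had 14.5 and 62.2 CPM, the lowest value outside Dup-L and the highest of all 15 libraries, against 38.2 to 41.0 CPM in WT. The mean difference was -0.06 on the log2 scale (SE 0.38, adjusted p = 0.939), but -1.47 without ΔBor het 2 (adjusted p = 0.00203) and 0.63 without ΔBor het 1. Each of these sets 1 ΔBor het library against WT and takes its spread from the other groups, so neither stands for the genotype. ΔBor het 1 also had a GC tilt of -0.49, near those of Dup-L, and ΔBor het 2 one of 0.01. The same pair split on the receptors. Bmpr1a had 420 and 329 CPM in ΔBor het, against 290 to 306 CPM in WT, and Bmpr1b had 61.6 and 46.1 CPM, against 33.4 to 52.1 CPM. ΔBor hom, with 1 library, had 41.9 CPM of Msx1, 386 CPM of Bmpr1a and 63.0 CPM of Bmpr1b. In ΔBor hom against WT no member passed in edgeR, against 1.27% of all genes. Bmp2, Bmp7, Bmpr1a and Bmpr1b had an unadjusted p under 0.05, as did many of all genes. The value of ΔBor hom lay outside the WT range for 7 of 10 members, against 59.3% of all genes. DESeq2 called Bmp7, Bmpr1a and Bmpr1b (log2 fold changes -1.24, 0.36 and 0.57) and limma none. Without WT 1, Bmp7 passed in edgeR. Far more of all genes passed in DESeq2 and without WT 1 than in the main edgeR fit.

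In Dup-C no member passed against WT in edgeR, DESeq2 or limma, and 2, Bmp7 and Chrd, had an unadjusted p under 0.05. Of all genes tested, 0.00566% passed in edgeR, and 2933 of 17655 had an unadjusted p under 0.05. The CPM ranges were apart for 2 of 10 members, against 19.4% of all genes. Msx1 had 39.5 and 33.3 CPM in Dup-C (log2 fold change -0.14, SE 0.38), and Msx2 had 74.6 and 86.4 CPM, against 91.0, 64.4, 68.0 and 56.1 CPM in WT (0.20, SE 0.16, adjusted p = 0.526). Bmp7 had 109 and 98.3 CPM in Dup-C, below every WT library (-0.87, SE 0.26, adjusted p = 0.251), and within the first batch the log2 difference was -0.33. Without WT 1, Bmp7 (-1.03, adjusted p = 0.0225) and Chrd (-0.79, adjusted p = 0.0488) passed, where 1640 of 17593 genes did. Against Dup-L, which is low in Pitx1 where Dup-C is high, Dup-C had higher Msx1 (1.59, SE 0.45, adjusted p = 0.036) and Bmp4 (0.49, SE 0.13, adjusted p = 0.0253) and lower Bmpr1a (-0.38, SE 0.12, adjusted p = 0.041), 3 of 10 members where 15.1% of all genes passed. The CPM ranges were apart for 8 of 10, against 68.4% of all genes. Bmp4 had 37.0 and 45.2 CPM in Dup-C, against 29.3 and 29.2 CPM in Dup-L. None of the 3 passed with GC and length offsets, where 459 of 15255 genes did. Leaving out any 1 of these 4 libraries leaves 1 library in a group, so only differences are given. The log2 difference then ran from 1.46 to 1.75 for Msx1, 0.34 to 0.63 for Bmp4 and -0.41 to -0.34 for Bmpr1a.

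In the fit without covariates Nog and Chrd passed in no comparison. Chrd passed, beside the values above, in Dup-LΔBor against Dup-L with Pitx1 as a covariate (1.52, adjusted p = 0.0263). Nog ran from 6.3 to 19.7 CPM over the 15 libraries and Chrd from 6.5 to 16.7 CPM. Within WT, Nog was at 9.5 and 9.9 CPM in WT 1 and WT 3, which are high in Pitx1, and at 19.7 and 14.8 CPM in WT 2 and WT 4, which are low. Chrd was at 7.7 and 9.1 CPM in WT 1 and 3, and at 15.3 and 16.7 CPM in WT 2 and 4. High Chrd was not restricted to libraries low in Pitx1, since Dup-LΔBor had 16.4, 12.54, 13.4 and 16.3 CPM. Dup-L, low in Pitx1, had 9.9 and 11.5 CPM.

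Msx levels were then set against ligand levels library by library, on log2(CPM + 1). In all, 10 relations were computed, and p-values were adjusted over them. Bmp7 separated the batches, so relations with Bmp7 and with the summed ligands were taken within the first batch.

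Msx1 was not related to any ligand past the threshold. With Bmp2, r was 0.02 across the 15 libraries (p = 0.947, adjusted p = 0.947) and rho 0.47 (p = 0.0813, adjusted p = 0.321, permutation test). Within the first batch r was 0.21 (n = 9, adjusted p = 0.559, exact permutation) and within the second 0.70 (n = 6, adjusted p = 0.444, exact permutation). As deviations from group means it was 0.28 (adjusted p = 0.108, permutation test). The 3 libraries with Msx1 under 15 CPM, Dup-L 1, Dup-L 2 and ΔBor het 1, had 34.0, 35.5 and 46.3 CPM of Bmp2, within the range of the other 12. Among the other 12 libraries r was 0.87 and rho 0.93, a description only, since those 12 were chosen on Msx1 itself after seeing the data. Across the 15, r was 0.37 for Msx1 with Bmp4 and -0.45 with Bmp5, and in the first batch 0.35 with Bmp7.

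Msx2 rose with Bmp4 across all 15 libraries (r = 0.72, p = 0.00305, adjusted p = 0.0305, and rho = 0.54, p = 0.0402, adjusted p = 0.321, permutation test). The relation was close within the first batch (r = 0.96, adjusted p = 0.00139, and rho = 0.90, adjusted p = 0.0122, n = 9, exact permutation). It was not within the second (r = -0.13, n = 6, adjusted p = 0.797, exact permutation). Across the 15 libraries r depended on 2 of them, Dup-C 2 and WT 1, the highest in both genes. Without them r was 0.30 over 13 libraries of both batches (adjusted p = 0.549, permutation test). The first batch alone was not taken without them. As deviations from group means r was 0.41 (adjusted p = 0.51, permutation test). Over the 11 libraries with high Pitx1 it was 0.72 (adjusted p = 0.12, permutation test). The other Msx2 relations did not pass, among them that with Bmp7 (r = 0.33, 9 libraries).

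**Figure D3:**
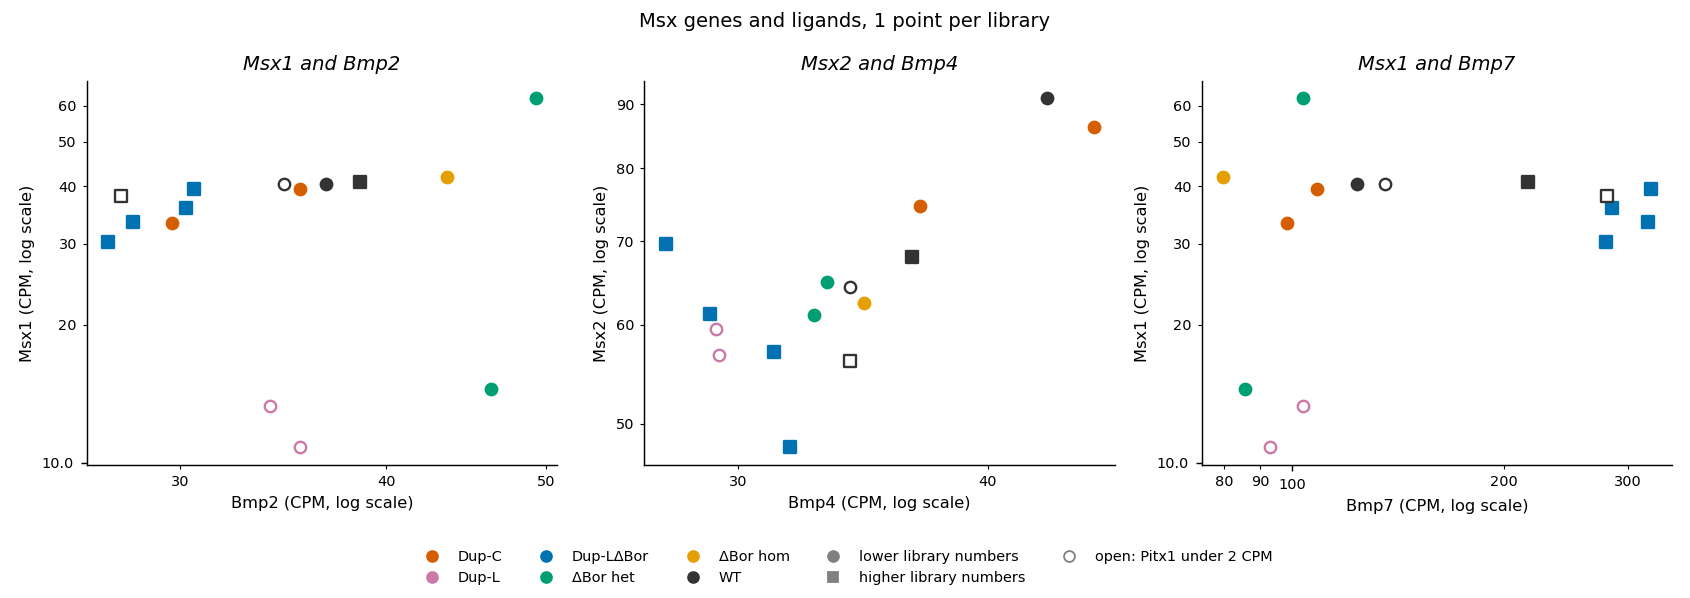
Msx1 against Bmp2, Msx2 against Bmp4 and Msx1 against Bmp7, with 1 point per library and CPM on log axes; colours are genotypes, squares the second batch and open symbols libraries with Pitx1 under 2 CPM. Msx1 and Bmp2 have an r of 0.02 across the 15 libraries, which does not pass. Msx2 and Bmp4 have an r of 0.72 across them, and 0.30 without Dup-C 2 and WT 1.

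Pitx1 fell into 2 separate levels, so relations with it were taken only over the 11 libraries in which it was high. Msx1 rose with Pitx1 there (r = 0.84, p = 0.00051, adjusted p = 0.0051, and rho = 0.78, p = 0.00627, adjusted p = 0.0627, permutation test, adjusted over the 10 members). The other 9 members did not pass, with r from -0.24 to 0.35. Without ΔBor het 1 and Dup-LΔBor R5, the libraries farthest from the median of Pitx1, r was 0.83 (adjusted p = 0.108, exact permutation, n = 9). Within the first batch r was 0.92 (adjusted p = 0.139, exact permutation, n = 6). Low Pitx1 did not go with low Msx1 in WT: WT 2 and WT 4, at 1.83 CPM of Pitx1, had 40.5 and 38.2 CPM of Msx1. The Dup-L libraries, lower still in Pitx1, had 13.3 and 10.8 CPM. Msx1 also moved with library GC content. The 3 libraries with the lowest GC tilt, Dup-L 2, Dup-L 1 and ΔBor het 1, were the 3 lowest in Msx1, but ΔBor hom, with the next lowest tilt of -0.33, had 41.9 CPM. Both Dup-L libraries combine low Pitx1 with a low tilt, and WT 2 and WT 4 have low Pitx1 with tilts of 0.18 and 0.22.

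**Figure D4:**
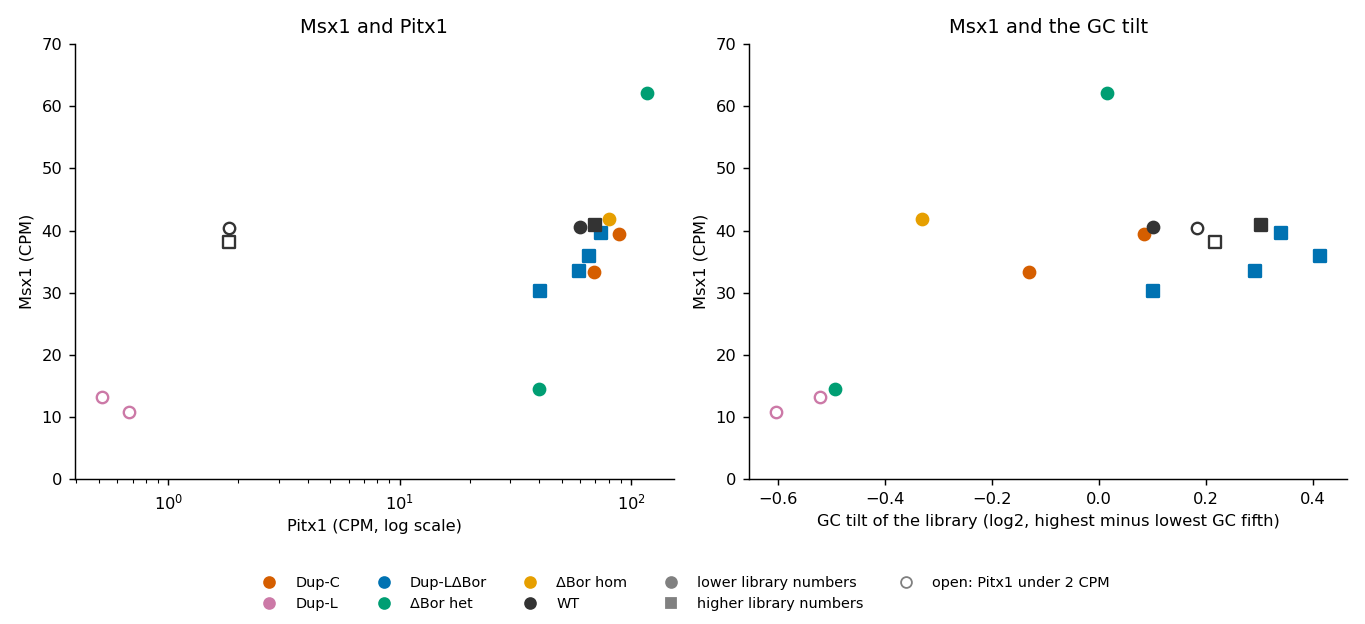
Msx1 (CPM) in each library against Pitx1 (CPM, log axis, left) and against the GC tilt of the library (log2, right); colours are genotypes, squares the second batch and open symbols libraries with Pitx1 under 2 CPM. WT 2 and WT 4 are low in Pitx1 with Msx1 at 40.5 and 38.2 CPM, and the 3 libraries with a tilt of -0.49 or less have Msx1 at 14.5 CPM or less.

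The genes whose levels were most like those of Msx1 over the 15 libraries, by Pearson r of log2(CPM + 1), were Jund (0.97), Pias4 (0.97), Prr7 (0.96), Tpgs1 (0.95) and Ccdc85b (0.95). Jund encodes a subunit of the AP-1 transcription factor and Pias4 a SUMO ligase. All 5 transcripts are rich in GC, at 54.8% or more, above the upper quartile of 54.6%. Those most like Msx2 were Tfap2c (0.91), Grhl2 (0.91), E030024N20Rik (0.89), Rnf43 (0.88) and Rhov (0.88). Tfap2c and Grhl2 encode transcription factors of surface ectoderm and epithelium, and Rnf43 a membrane ubiquitin ligase that lowers Wnt receptors. The libraries share genotype, batch and depth, and these values are descriptions.

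A further 40 genes of the pathway were followed as 1 list of ligands, receptors, extracellular modulators, Smads and targets, and all 40 were tested. In Dup-L against WT 6 were higher and 12 lower past the threshold, 45.0% of the list beside 32.4% of all genes. Among the other ligands, Gdf7 (-2.79, adjusted p = 0.00881) and Bmp6 (-0.75, adjusted p = 0.04) fell. Bmp1 fell too (-1.04, adjusted p = 0.019); it stands in the ligand list but encodes a metalloprotease that cleaves chordin, not a ligand. Gdf7 rests on 2 and 1 counts in Dup-L, against 12, 16, 22 and 9 counts in WT. Gdf5, of the joint interzone, averaged 85.3 ± 8.43 CPM in Dup-L (SD, n = 2) and 85.5 ± 23.2 CPM in WT (SD, n = 4) and did not pass. The type II receptors split: Acvr2b fell (-1.17, SE 0.18, adjusted p = 0.00143), and Acvr2a (0.53, adjusted p = 0.00241) and Bmpr2 (0.39, adjusted p = 0.0409) rose.

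Acvr2b had 10.4 and 9.02 CPM in Dup-L, against 24.99, 17.54, 26.2 and 18.5 CPM in WT. It was the only 1 of the 40 past the threshold with GC and length offsets (-0.91, adjusted p = 0.0194), and it also passed within the first batch (-1.16, adjusted p = 0.0183). Within the first batch 2 of the 40 were higher and 6 lower, and with Pitx1 as a covariate none passed. For comparison, 647 of 15255 tested genes passed under the offsets. In the first batch 1126 of 17270 tested genes were higher and 1910 lower, and the covariate left 0 of 17655.

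Among the modulators, Rgma, a BMP co-receptor (-0.83), Chrdl2 (-0.70) and Nbl1 (-0.36) fell, and Chrdl1 (0.76) and Fst, an antagonist of activins and BMPs (0.60), rose. Grem1, which binds BMPs in the mesenchyme below the ridge, was at 5.31 and 11.2 CPM in Dup-L, against 10.3, 8.59, 5.73 and 9.03 CPM in WT. The inhibitory Smad gene Smad6 (-0.80, adjusted p = 0.00872) and the ubiquitin ligase gene Smurf1 (-0.34) fell, while Smad7 (-0.27, adjusted p = 0.204) did not pass. Smad7 passed with batch as a term (-0.49, adjusted p = 0.0166) and within the first batch (-0.52, adjusted p = 0.0277), where Smad6 (-0.78, adjusted p = 0.0648) did not. The Id genes, which encode inhibitors of bHLH factors and are direct BMP targets, did not move together. Id1 had 82.2 and 80.6 CPM in Dup-L, against 124, 138, 160 and 166 CPM in WT (-0.85, adjusted p = 0.00688). Id3 had 149 and 136 CPM in Dup-L, against 201, 229, 235 and 239 CPM in WT (-0.66, adjusted p = 0.00432). Both groups were apart for Id1 and for Id3. Within the first batch neither Id1 (-0.71, adjusted p = 0.0767) nor Id3 (-0.62, adjusted p = 0.0649) passed. Id2 rose (0.53, adjusted p = 0.0106), as did Id4 (1.05, adjusted p = 0.00989). With GC and length offsets Id1 was at -0.58 (adjusted p = 0.0568), Id3 at -0.34 (adjusted p = 0.0701), Id2 at 0.23 and Id4 at 0.67. Tbx2, a distal limb repressor, fell (-1.03, adjusted p = 0.00192), and its difference was -0.22 with the offsets.

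**Figure D5:**
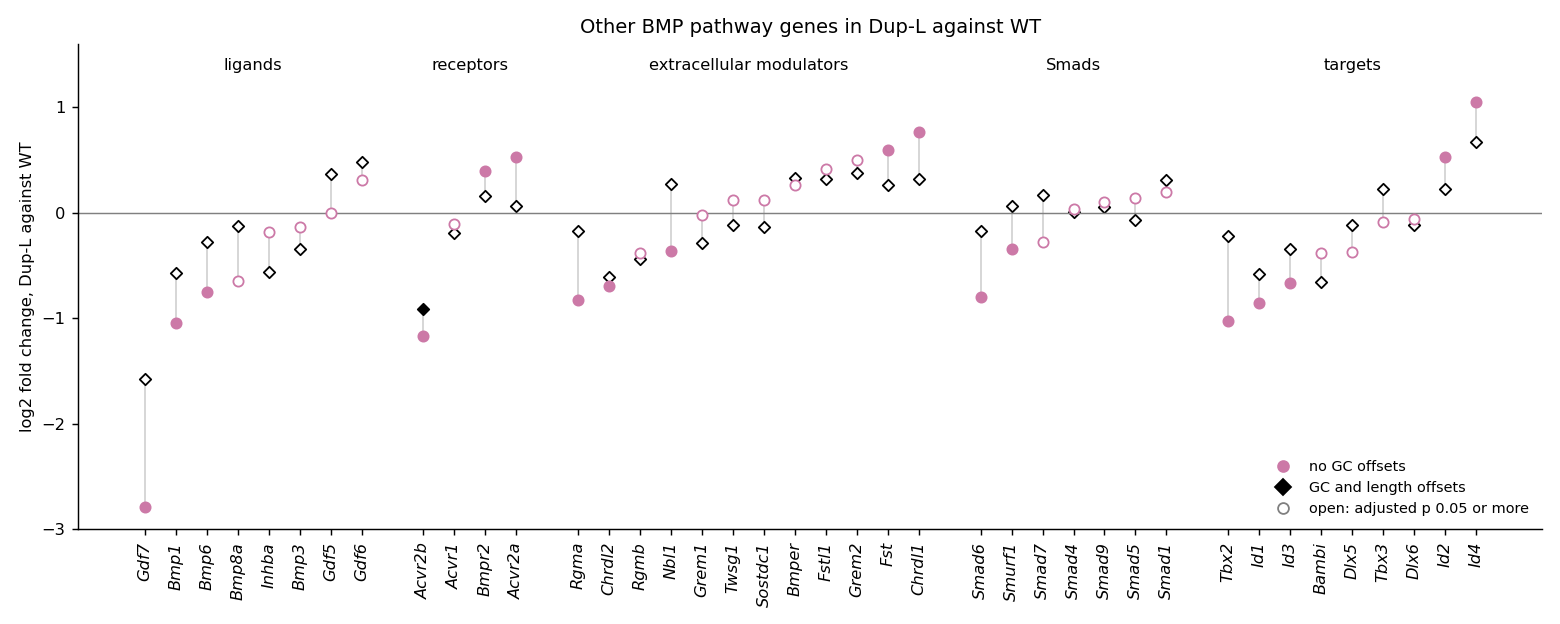
Log2 fold change of 40 other BMP pathway genes in Dup-L against WT, grouped by role; circles are without and diamonds with offsets for GC content and length, and filled symbols passed the adjusted threshold. Most of the larger changes are nearer 0 with the offsets, and Acvr2b alone is past the threshold with them.

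ΔBor het 1 again had values like those of Dup-L for several of these genes. Id1 was at 82.1 and 154 CPM, Id3 at 146 and 236 CPM and Smad6 at 18.2 and 32.8 CPM in ΔBor het 1 and 2, against at least 124, 201 and 26.6 CPM in WT. None of the 3 passed in ΔBor het against WT, where Acvr2a alone rose (0.41, SE 0.10, adjusted p = 0.0435), 2.5% of the list beside 4.03% of all genes. Acvr2a did not pass with GC and length offsets (0.09, adjusted p = 0.546), with batch as a term (0.36, adjusted p = 0.19), within the first batch (0.34, adjusted p = 0.32) or with Pitx1 as a covariate (0.40, adjusted p = 0.0587), where Chrdl1 and Acvr2b passed. In Dup-LΔBor against WT, Acvr2b rose (0.54, SE 0.14, adjusted p = 0.0454) and Acvr1, a type I receptor (-0.28, SE 0.07, adjusted p = 0.0348), and Tbx3 (-0.71, SE 0.17, adjusted p = 0.0361) fell. That was 7.5% of the list beside 3.85% of all genes, and none of the 3 passed within the second batch. Tbx3 had 29.9, 23.9, 28.5 and 23.9 CPM in Dup-LΔBor, against 57.7, 48.7, 32.4 and 35.4 CPM in WT, where the 2 libraries of the second batch were the low ones. None of the 40 passed in Dup-C or ΔBor hom against WT in the edgeR fit without covariates. With Pitx1 as a covariate Chrdl1 passed in ΔBor hom (1.47, adjusted p = 0.045). In Dup-C the log2 ratios were 0.54 for Grem1, -0.62 for Gdf5, 0.23 for Bmpr2, 0.02 for Smad6, 0.22 for Smad7, -0.11 for Id1, 0.25 for Id2 and -0.06 for Id3. In ΔBor hom those of the same 8 genes were -0.01, -0.71, 0.43, -0.22, 0.03, -0.09, 0.19 and -0.34. In ΔBor het, Grem1 was at -0.28, Gdf5 at 0.05, Bmpr2 at 0.47, Smad7 at 0.15 and Id2 at 0.26. In Dup-LΔBor against WT, Grem1 was at 0.08, Gdf5 at -0.0033, Bmpr2 at -0.16, Smad6 at -0.09, Smad7 at 0.01, Id1 at 0.33, Id2 at -0.36 and Id3 at -0.18.

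In Dup-LΔBor against Dup-L 10 of the 40 were higher and 9 lower. That was 47.5% of the list, near the 43.6% of all genes, of which 21.5% were higher and 22.1% lower. Acvr2b differed most surely, with 26.5 to 34.1 CPM in its 4 Dup-LΔBor libraries, against 10.4 and 9.02 CPM in Dup-L (1.71, SE 0.18, adjusted p = 5.05e-05). Id1 (1.18), Id3 (0.48), Smad6 (0.71) and Tbx2 (1.12) were higher and Id2 (-0.88), Id4 (-1.54), Fst (-0.93) and Bmpr2 (-0.55) lower. Grem1 (0.11), Gdf5 (-0.0002) and Smad7 (0.28) did not pass, but Smad7 passed with batch as a term (0.76, adjusted p = 0.0193). With GC and length offsets 7 were higher and 6 lower, where 2168 and 1942 of 15255 genes were. With batch as a term 4 were higher and 1 lower, where 1303 and 995 of 17655 genes were. With Pitx1 as a covariate 2 were higher (Bmp1 and Acvr2b) and 0 lower, where 780 and 536 of 17655 genes were. In Dup-C against Dup-L 6 were higher, among them Acvr2b (1.31, adjusted p = 0.00906), Id1 (0.74), Id3 (0.61) and Tbx2 (1.18), and 4 lower, among them Fst (-1.09, adjusted p = 0.00906) and Id4 (-1.13). Smad6 was also higher (0.82), while Grem1 (0.56), Gdf5 (-0.62), Bmpr2 (-0.16), Smad7 (0.49) and Id2 (-0.28) did not pass. Smad7 passed with batch as a term (0.49, adjusted p = 0.0194) and within the first batch (0.51, adjusted p = 0.0294), where Smad6 (0.84, adjusted p = 0.0553), Id1 (0.77, adjusted p = 0.0664) and Id3 (0.63, adjusted p = 0.0656) did not. With the offsets, Acvr2b was higher and Fst lower, and no other gene of the list passed, where 459 of 15255 genes did.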

How the data were processed

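The authors' deposited table of raw counts per gene and their table of FPKM values, both for 34682 genes, were used. Reads were aligned with STAR to mm9, and DESeq2 and bedtools 2.17.0 are named too, per the submitters' processing notes. For the counting tool, annotation, strand setting and FPKM scale, the sources used here give nothing. Columns were matched to samples by genotype and replicate; Dup-LΔBor columns are named R2 to R5 and match the group only.

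Counts were fitted in R 4.3.3 with edgeR 4.0.16 (TMM; low counts filtered with filterByExpr; robust quasi-likelihood; two-sided). A single fit of 6 groups took all 15 libraries and tested 17655 genes, and p-values were adjusted by Benjamini-Hochberg with a threshold of 0.05. Every adjusted p of a gene is from such a fit unless limma 3.58.1 or DESeq2 1.42.0 is named. The 1 library of ΔBor hom was taken to vary as much as libraries elsewhere. Fold changes are log2, tested genotype over the other. The fit was tested on simulated data. Alternatives were DESeq2 size factors, no count filter, DESeq2, limma on log2(FPKM + 0.1) and log2(FPKM + 1) for genes over 0.5 FPKM in 2 libraries, batch as a term, Pitx1 as a covariate, 1 batch only, a replicate block and each library left out. Offsets used GC and length of GENCODE transcripts on GRCm38, matched by symbol for 86.4% of tested genes, and only those were fitted. Promoters are RefSeq's.

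Relations used Pearson and Spearman coefficients with 100000 permutations, or all permutations under 10 libraries. The libraries used for relations of Bmp7, the description of Msx1 over 12 libraries and the fit of 8 libraries without a block were chosen after seeing the data. Named genes were the 10 members, genes of the list of 40 past the threshold with a few fixed ones, Pitx1, Tbx4, Tbx5, Sox9 and Kcnj2, and the 5 genes most like each Msx gene. The members and lists were chosen with earlier results of these data known.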

Additional observations from a re-analysis of the deposited data

Results flagged for a closer look

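One value of the 10 genes stood apart within its group: Msx1 in WT 4, at 38.2 CPM, where the other 3 WT libraries were at 40.5 to 41.0 CPM. Its gap to the nearest of the others was 0.831 of the group's range, just above Dixon's 95% limit for 4 samples. Of 20 such tests, over the 10 genes in Dup-LΔBor and in WT, this was the only 1 past the limit, and chance gives about 1 in 20.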

How the results depend on the processing

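The numbers of members past the threshold depended on the settings. In Dup-L against WT the count was 5, and it was 0 with Pitx1 as a covariate, 1 with GC and length offsets (Msx1), 2 within 1 batch (Bmp7 and Bmpr1a) and 1 to 5 when a library was left out. In Dup-LΔBor against WT it was 0, and it was 3 with Pitx1 as a covariate, 2 in DESeq2, 1 in limma at either pseudocount and 0 to 3 with a library left out. In ΔBor het against WT it was 1, and it was 3 in DESeq2, 0 without a count filter, with batch as a term, with Pitx1 as a covariate, in limma and within 1 batch, and 0 to 2 with a library left out. In ΔBor hom against WT it was 0, and it was higher in DESeq2 and with WT 1 left out, where far more of all genes passed too. In Dup-C against WT it was 0, and 0 to 2 with a WT library left out. The 2 stood beside 1640 of 17593 genes without WT 1. In Dup-LΔBor against Dup-L it was 5, 2 with batch as a term, 3 with Pitx1 as a covariate, 3 with the offsets and 3 to 5 with a library left out. In Dup-C against Dup-L it was 3, 1 without a count filter, 0 with Pitx1 as a covariate, 0 with the offsets and 1 within 1 batch. There, any library left out leaves 1 library in a group, and no count is given. Of all genes, 5719 of 17655 passed in Dup-L against WT. There 0 passed with Pitx1 as a covariate, 647 of 15255 with the offsets and 3036 of 17270 within 1 batch. In Dup-LΔBor against WT 679 passed, 1371 with the covariate, 1634 of 16362 in DESeq2, and 628 and 664 of 14616 in limma. In ΔBor het against WT 712 passed, and 2074 of 14943 in DESeq2. In Dup-LΔBor against Dup-L 7704 passed, 2298 with batch as a term, 1316 with the covariate and 4110 of 15255 with the offsets. In Dup-C against Dup-L 2674 passed, 0 with the covariate and 459 of 15255 with the offsets. The covariate and each omitted library leave fewer residual degrees of freedom. No cause of these shifts was tested.

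The replicate numbers did not pair the libraries: same-numbered libraries correlated between -0.31 and 0.14 in their deviations from group means. With the replicate number as a block, over 8 libraries, the count was 0 in Dup-L against WT, 0 in ΔBor het against WT and 0 in Dup-C against Dup-L. The same 8 libraries without the block gave 2, 0 and 1. Of 16773 genes tested, 1584, 35 and 1621 passed with the block, and 3190, 52 and 2824 without it.

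Of 1100 values of single genes under the alternatives, 989 kept direction or stayed short of the threshold as before, 82 lost it, 29 gained it and 0 reversed past it. A further check found 78 sign changes among values with neither side past the threshold. Of 56 values of Msx and ligand relations, 52 kept their side. Msx2 with Bmp4 missed it at 0.41 as deviations, 0.30 without its 2 farthest libraries and 0.72 in the libraries high in Pitx1. In the second batch r was -0.13 (n = 6, adjusted p = 0.797, exact permutation), of the opposite sign but not past the threshold. The number of members related to Pitx1 was 1, and 0 without the 2 farthest libraries and 0 within the first batch. The 10 genes had at least 7423 counts each over all libraries; the part of depth was not tested.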
